A study of Danio rerio with 4 samples.

Results

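The genes described here are those of the extracellular matrix and of cell adhesion: collagens, laminins, integrins, the ADAMTS and matrix metalloproteinase (MMP) proteases, microfibril-associated proteins (MFAP), cadherins and protocadherins. They were taken by the start of the gene name in 2 deposited tables of genes called different between sorted cells of the zebrafish pancreas. The tables list 3020 distinct genes, and 52 of them carry such a name, 41 in the table of replicate 1 and 16 in that of replicate 2. The cells were centroacinar cells, labelled CAC, and the sorted non-centroacinar cells, labelled non-CAC, separated by fluorescence from dissociated pancreas of adult AB-strain zebrafish, with total RNA taken up in Trizol and 1 TruSeq library per group in each of 2 replicates. The reporter or gate of the sort, the number of fish and whether the replicates came from separate fish are not given in the sources used here, so the spread between replicates may be technical.

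Centroacinar cells sit where the terminal ducts reach into the acini, and are studied as a progenitor-like population of the pancreas. Epithelial cells of ducts rest on a basement membrane of laminin and collagen IV, hold that membrane through integrins, and hold one another through cadherins. Fibrillar collagens are made mainly by mesenchymal cells, and protocadherins are best known from neurons, where the clustered genes give single cells a surface identity.

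Each table gives, per gene, a ratio between the CAC and the non-CAC library of a replicate, and the header does not name which library is on top. A gene is therefore described by its side, below 1 or above 1, and by its log2 ratio, taken from the posterior fold column. An uncorrected fold stands beside it. Where these fold columns were over 10 times apart the size of a ratio depends on the column, and those within 10 times are called close. The tables hold called genes only, with no level per library, so depth is unknown, an absent gene was not called, and in these sorted bulk samples fewer cells of a type and less RNA per cell cannot be told apart. Known markers give the sides a landmark. Of 21 ductal and centroacinar markers, such as cftr and nkx6.1, all 14 listed in replicate 1 lay below 1. In replicate 2, 16 of 17 did, and KRT18, now named krt18b, was above 1 at a log2 ratio of 1.93. Of all listed genes, 33.4% lay below 1 in replicate 1 and 57.1% in replicate 2. All 15 acinar markers listed in replicate 2, such as the elastase gene ela2l, lay above 1, where 42.9% of all genes did. Of 18 acinar markers, only CUZD1 was listed in replicate 1, above 1 as 66.6% of all genes were. The acinar landmark of replicate 1 thus rests on 1 gene. Sizes are not on one scale across the tables, since the members nearest to 1 stood at -4.29 and 5.47 in replicate 1 and at -1.99 and 1.74 in replicate 2, as log2 ratios by the authors' deposited tables.

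In replicate 1, 23 of the 41 members lay below 1 (56.1%) and 18 above (43.9%), where 33.4% of all 1812 listed genes lay below and 66.6% above. The clustered protocadherins supplied 19 of those 23. Without them, 4 of 21 members lay below 1 (19.0%). With the table centred on its median, 28 of the 41 lay below it and 13 above. CDH23, itga2b, PCDHAC2, pcdh10a and MMP21 changed side. That median, 6.02, lies among the genes above 1, so centring sets sides against the listed genes and not against 1. The deposited ratios of the genes that changed side ran from 44.4 to 60.8. Centring also brings every member above 1 in replicate 1 nearer to 0 by 6.02 or past it, and every member below 1 in replicate 2 nearer by 1.90. No member of replicate 2 changed side. In replicate 2, 11 of 16 members lay below 1 (68.8%) and 5 above (31.2%), where 57.1% of all 1560 listed genes lay below and 42.9% above. The members' median log2 ratio was -4.71 in replicate 1 and -2.21 in replicate 2, and that of all listed genes was 6.02 and -1.90. Leaving out the clustered protocadherins, the members' median was 6.59 in replicate 1 and -2.21 in replicate 2. No listed gene of replicate 1 lay between -4.13 and 5.14, so a median there tells mainly which side holds more genes. With 1 library per group in a table, there is no replicate check within it and no test was made there.

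**Figure D1:**
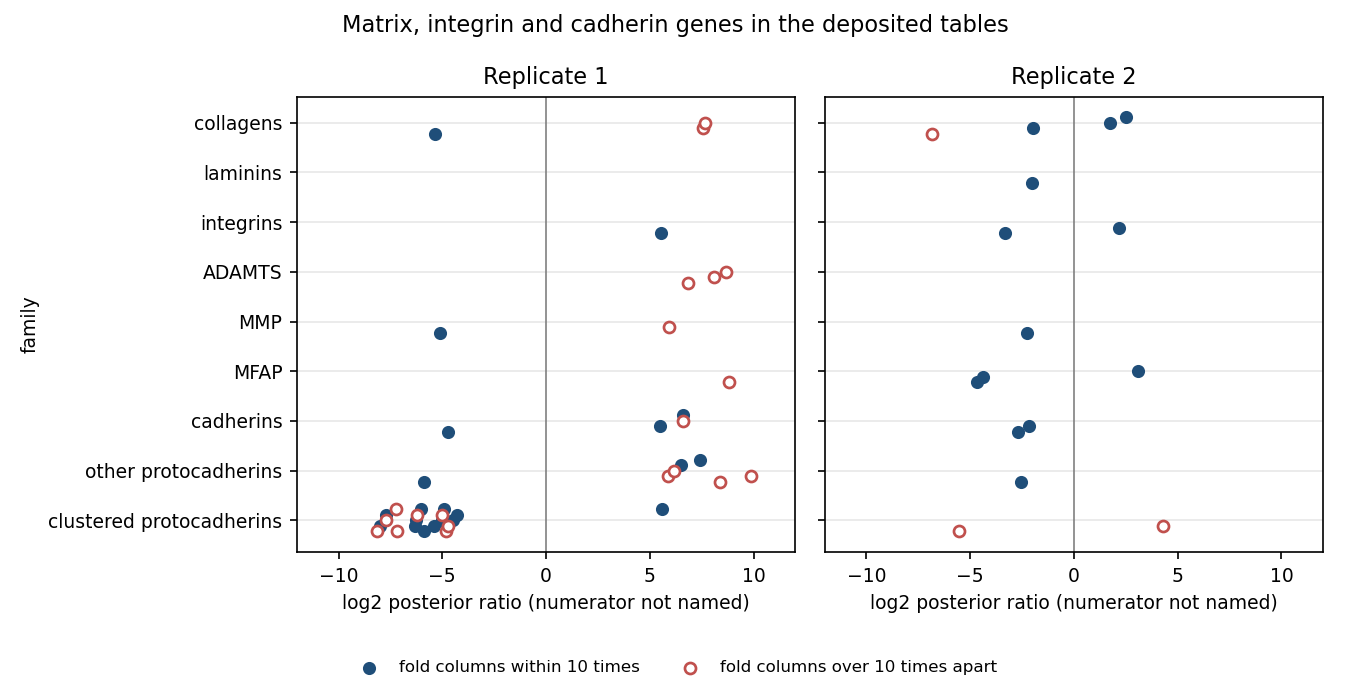
Log2 posterior ratio of each member in replicate 1 (left) and replicate 2 (right), by family, 1 point per gene. Open points are genes whose posterior and uncorrected fold are over 10 times apart, and 19 of the 20 clustered protocadherins of replicate 1 lie below 1.

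**Figure D2:**
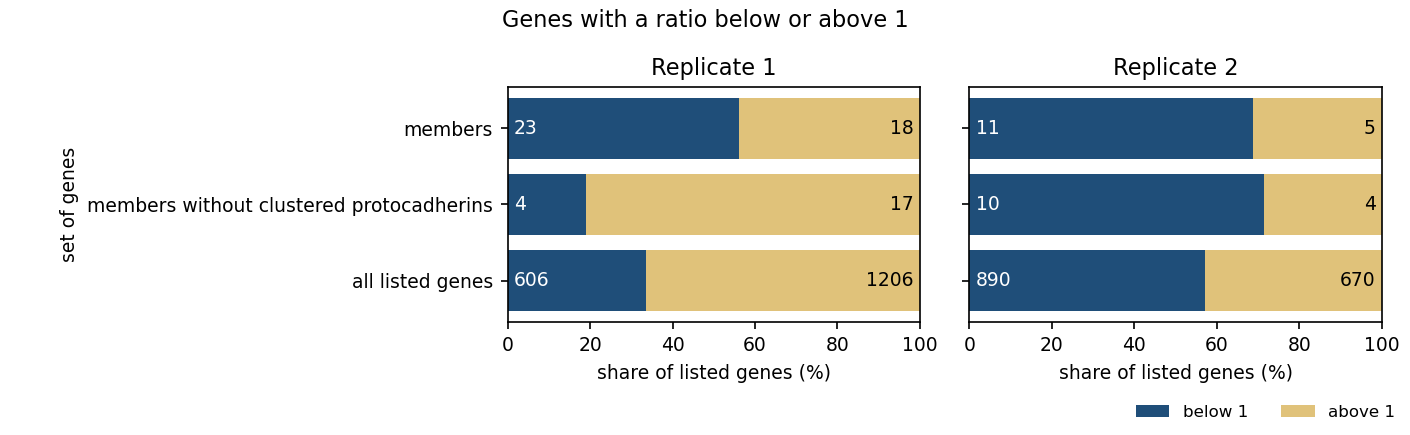
Share of genes with a ratio below 1 (dark) and above 1 (light) in each replicate, for the members, the members without clustered protocadherins and all listed genes, with the number of genes printed in each bar. In replicate 1 the share below 1 is 56.1% with the clustered protocadherins and 19.0% without them.

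Of the 52 members, 5 were listed in both tables, which is 9.62%, where 11.7% of all 3020 genes were. All 5 kept their side. The collagen gene col28a1 and the protocadherin genes PCDH7 and PCDHAC1 (ENSDARG00000090614) lay below 1 in both, and the collagen gene col7a1l and MFAP4 (ENSDARG00000088745) above 1 in both. Among all 352 genes in both tables, 61.4% lay below 1 in both and 32.7% above 1 in both. A paired fit over both replicates, limma's moderated test with Benjamini-Hochberg adjustment at 0.05, called 4 of the 352 genes (1.14%) below 1 and 0 (0%) above 1, and none of the 5 members was called. At an unadjusted p of 0.05, limma had 104 genes below and 93 above 1, with 2 members on each side. The adjusted p of the 5 members was 0.0678 for col28a1, MFAP4 and PCDHAC1, 0.0719 for col7a1l and 0.0943 for PCDH7 in limma. These genes enter the test because both tables list them, so its p-values carry that selection, and the moderated spread gave each mean log2 ratio the same standard error of 2.19. As sizes are not on one scale across the replicates, that spread also holds the difference in scale between them.

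**Figure D3:**
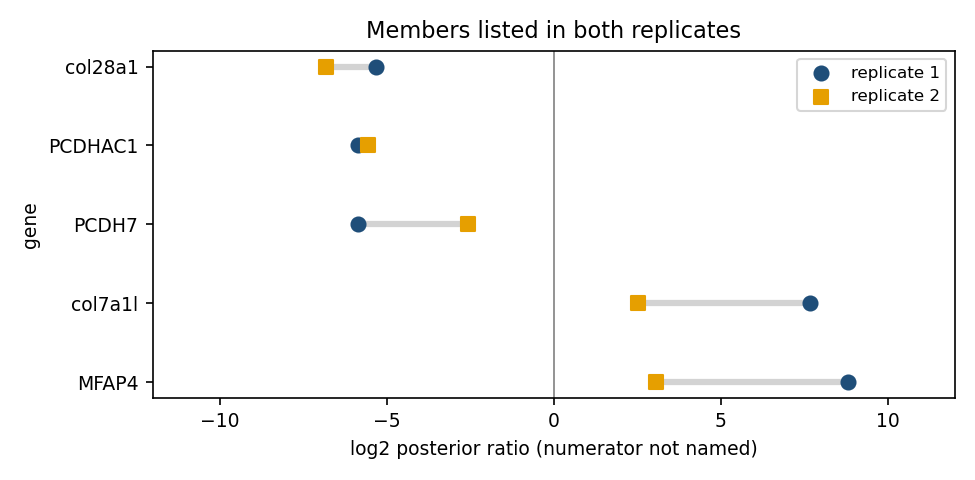
Log2 posterior ratio of the 5 members listed in both replicates, with circles for replicate 1, squares for replicate 2 and a grey line joining them. Each gene keeps its side, and col28a1 is the only one farther from 1 in replicate 2, at -6.82 against -5.34 in replicate 1.

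The 5 collagen genes lay on both sides of 1. The gene col28a1, for a collagen with von Willebrand factor A domains, lies on chromosome 19, 25963867 to 25997227, in coordinates taken as Zv9, the assembly that the submitters' processing notes name. By the authors' deposited tables its ratio was 0.0248 in replicate 1 and 0.00886 in replicate 2, which are log2 ratios of -5.34 and -6.82. In replicate 2 its fold columns were over 10 times apart, with an uncorrected log2 ratio of -13.20. A 33.4 kb locus with the same start and end also carries the identifier named si:ch211-174d12.4, which was listed at -4.52 by the authors' deposited table for replicate 2.

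Collagen VII genes lay on the other side. Collagen VII forms the anchoring fibrils that tie epithelial basement membranes to the tissue beneath. The authors' deposited table of replicate 1 gave COL7A1 (chromosome 6, 40115991 to 40174833) a log2 ratio of 7.58 and col7a1l (chromosome 4, 14954828 to 15005641) 7.65. Both had fold columns over 10 times apart in that replicate. By the authors' deposited table of replicate 2, col7a1l was at 2.51, with an uncorrected value of 2.64, and COL7A1 was not listed.

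The collagen IV and laminin genes of replicate 2 lay on the side of the ductal markers. Collagen IV forms the membrane's network, and the laminin gamma 1 chain is part of most laminin trimers. By the authors' deposited table of replicate 2, col4a1 (chromosome 9, 8676055 to 8715240) had a ratio of 0.252 and lamc1 (chromosome 2, 35601432 to 35700011) a ratio of 0.243, as log2 ratios -1.99 and -2.04. Centred on the median of that table (-1.90), col4a1 stood at -0.087 and lamc1 at -0.14, near the middle of the listed genes. The gene of dystroglycan, dag1, a laminin receptor outside these families, was at -2.41 in the same deposited table. Neither col4a1, lamc1 nor dag1 was listed in replicate 1, and lamc1 was the only laminin gene in either table.

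Fibrillar collagen I was on the opposite side to these. The gene col1a1b (chromosome 12, 3687445 to 3725230), for a chain of the main collagen of connective tissue, had a ratio of 3.34 and a log2 ratio of 1.74 by the authors' deposited table for replicate 2, and was not listed in replicate 1. Of 24 mesenchymal markers, 0 were listed in replicate 1 and 4 in replicate 2. Besides col1a1b, the proteoglycan gene dcn (1.74) and the transcription factor gene hand2 (4.16) lay above 1 and the transcription factor gene twist1a (-3.07) below 1 by the authors' deposited table. The part of mesenchymal cells in the collagen values was not tested.

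Integrins are receptors of paired alpha and beta chains, and only alpha chain genes were listed. The name itga2b stood on 2 identifiers. ENSDARG00000018687 (chromosome 3, 21563569 to 21595552), whose current name is also itga2b, encodes the alpha chain of the platelet and thrombocyte fibrinogen receptor and had a log2 ratio of 5.56 by the authors' deposited table for replicate 1. ENSDARG00000069390 (chromosome 10, 8937517 to 8949436), named itga2.1 in the table of current names, had a log2 ratio of -3.33 by the authors' deposited table for replicate 2. The opposite signs thus belong to different genes, and integrin alpha 2 in mammals is a chain of a collagen receptor.

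ITGAE (chromosome 15, 16189204 to 16232608), now named itgae.2, carries the name of integrin alpha E. In mammals that integrin binds E-cadherin and is carried by lymphocytes within epithelia. The ratio of ITGAE was 4.51 and its log2 ratio 2.17 by the authors' deposited table for replicate 2. The gene of E-cadherin, cdh1, lay on the other side of 1 in the same table. Leukocyte markers lay with ITGAE, since 8 of 9 listed in replicate 2 were above 1, where 42.9% of all listed genes were. Among them were the pan-leukocyte gene ptprc at 2.08 and lcp1 at 3.45 by the authors' deposited table, with ighd below 1. Another identifier named LCP1 (ENSDARG00000088098), at 2.55, was counted among the 8. ITGAE was not listed in replicate 1, where 8 of 8 leukocyte markers and 66.6% of all listed genes were above 1. Of those 8, 6 had fold columns over 10 times apart. The part of leukocytes in the integrin value was not tested.

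Matrix proteases were listed on both sides. All 3 ADAMTS genes, secreted metalloproteases with thrombospondin repeats, lay above 1 in replicate 1, where 66.6% of all listed genes did, and none was listed in replicate 2. By the authors' deposited table, adamts13, whose product cleaves von Willebrand factor, was at 8.68, ADAMTS17 at 8.08 and adamts18 at 6.83, as log2 ratios. All 3 had fold columns over 10 times apart, and their uncorrected log2 ratios ran from 13.99 to 15.86 by the authors' deposited table.

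Of the MMP genes, mmp11a (chromosome 8, 31645404 to 31673457), for stromelysin 3, was at -5.12 and MMP21 at 5.93 by the authors' deposited table for replicate 1. MMP21 also had fold columns over 10 times apart. MMP15, for a membrane-bound MMP that activates others at the cell surface, was at -2.25 by the authors' deposited table for replicate 2. No MMP gene was in both tables.

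MFAP4 encodes a fibrinogen-domain protein of elastic microfibrils. In zebrafish it belongs to a family of similar copies, and mfap4 promoters are used to mark macrophages. Reads may be shared among such copies, so single values are uncertain. ENSDARG00000088745 stood at 8.82 in replicate 1 and 3.07 in replicate 2 as log2 ratios, by the authors' deposited tables. Its fold columns were over 10 times apart in replicate 1, with an uncorrected log2 ratio of 15.99, and close in replicate 2. The other two identifiers under the name, ENSDARG00000094845 and ENSDARG00000091166, were listed in replicate 2 alone, at -4.66 and -4.39 by the authors' deposited table, with fold columns close together. Members of the family thus lay on both sides of 1 within a single pair of libraries. The macrophage genes MARCO, at 7.27 in replicate 1, and csf1ra, at 1.86 in replicate 2 by the authors' deposited tables, lay above 1. Fold columns were over 10 times apart for MARCO and close for csf1ra. The part of macrophages in the MFAP4 values was not tested.

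Cadherins are calcium-dependent adhesion proteins that join like cells. E-cadherin, encoded by cdh1 (chromosome 7, 56206924 to 56228078), is the cadherin of epithelial junctions. Its ratio was 0.223 and its log2 ratio -2.17 by the authors' deposited table for replicate 2, on the side of the ductal markers, and it was not listed in replicate 1. Centred on the table's median, cdh1 stood at -0.27. CDH8, a classical cadherin known from neurons, was at -2.68 by the authors' deposited table for replicate 2.

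VE-cadherin, encoded by cdh5 (chromosome 7, 45433469 to 45568430), is the cadherin of endothelial junctions, and its log2 ratio was -4.71 by the authors' deposited table for replicate 1. The other endothelial markers listed in that replicate did not share its side. Of 5 listed in replicate 1, the 4 besides cdh5 lay above 1, where 66.6% of all listed genes did. They were flt1 at 5.86, aqp1a.1 at 6.58, mrc1a at 7.37 and etv2 at 8.56 by the authors' deposited table. Of the 19 endothelial markers, 0 were listed in replicate 2. Fold columns were over 10 times apart for aqp1a.1, mrc1a and etv2 and within 10 times of each other for flt1. The part of endothelial cells in the cdh5 value was not tested.

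Cadherin 23 and protocadherin 15 form the tip links of sensory hair cells in the ear. By the authors' deposited table of replicate 1, cdh23 (chromosome 13, 43415206 to 43664837) was at 6.61 and a neighbouring locus named CDH23 (43723087 to 43875606) at 5.47, both with close fold columns. In the same deposited table pcdh15b (chromosome 12, 7249998 to 7502180) had a ratio of 950.0, a log2 ratio of 9.89, the ninth highest of 1206 genes above 1, with fold columns over 10 times apart. None of these 3 was in the table of replicate 2. The glycosylphosphatidylinositol-anchored cadherin gene cdh13 was at 6.59 by the authors' deposited table for replicate 1, with fold columns over 10 times apart.

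Of the protocadherin genes outside the clusters, 6 of 7 lay above 1 in replicate 1, where 66.6% of all listed genes did. By the authors' deposited table, PCDH9 was at 8.39, pcdh8, whose mouse and frog relatives act in the segmenting mesoderm, at 7.43, and pcdh19, a gene of human epilepsy, at 6.51. PCDH12, known from mammalian endothelium, was at 6.17 and pcdh10a at 5.86 by the authors' deposited table. Of the 6 genes, pcdh8 and pcdh19 had close fold columns. The exception was PCDH7 (chromosome 7, 64101215 to 64233688), at -5.87 in replicate 1 and -2.57 in replicate 2 by the authors' deposited tables. It was the only one of these 7 genes in both tables, and its fold columns were close in both.

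Clustered protocadherins made up 21 of the 52 members, under the names PCDHAC1 (9 identifiers), PCDHAC2, pcdh1 and pcdh2. In replicate 1, 20 were listed and 19 lay below 1 (95.0%), where 33.4% of all listed genes did. Their median log2 ratio was -5.94 by the authors' deposited table. Reads of variable exons that resemble one another, and of shared constant exons, can be split or counted more than once among these genes, so the 19 values are uncertain and may not be separate measurements. In replicate 2, 2 were listed. PCDHAC1 (ENSDARG00000090614) was at -5.86 in replicate 1 and -5.55 in replicate 2, and by the authors' deposited table for replicate 2 pcdh2g3 (ENSDARG00000074959) had a ratio of 19.7. Both had fold columns over 10 times apart in replicate 2.

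The lowest members belonged to this group. A PCDHAC1 identifier, ENSDARG00000078400, had a log2 ratio of -8.14 by the authors' deposited table for replicate 1, pcdh2g16 -8.02, a second PCDHAC1 identifier, ENSDARG00000037682, -7.74 and pcdh2g29 -7.71. Among the 606 genes below 1 these took places 15, 17, 23 and 25 from the lowest. The pcdh2g16 and pcdh2g29 values rest on close fold columns and the 2 PCDHAC1 values do not. The remaining PCDHAC1 identifiers ran from -7.17 to -4.46, with ENSDARG00000057519, now named pcdh1g9, at -5.02, by the authors' deposited table for replicate 1. PCDHAC2 (ENSDARG00000092081) was the exception of the group in replicate 1, at 5.60 by the authors' deposited table.

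Coordinates were readable for 10 of the 20 clustered genes of replicate 1, 8 of them on chromosome 14. These pcdh2 genes lay within 2510482 to 2999534, and all 8 were below 1 in replicate 1. In order along the chromosome, the authors' deposited table gave pcdh2ab6 -6.20, pcdh2g3 (ENSDARG00000071894) -7.22, pcdh2g4 -4.74, pcdh2g7 -4.81, pcdh2g16 -8.02, pcdh2g20 -6.02, pcdh2g28 -4.29 and pcdh2g29 -7.71. The first 4 of these had fold columns over 10 times apart. The same interval held the pcdh2g3 identifier of replicate 2, which lay above 1. The symbol pcdh2g3 thus stands for separate loci, 2866724 to 2869695 in replicate 1 and 2847817 to 2850232 in replicate 2. No other listed gene with readable coordinates overlapped this interval. Coordinates were lacking for 335 of the 1812 genes of replicate 1 and 168 of the 1560 of replicate 2, so genes without them could not be placed.

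**Figure D4:**
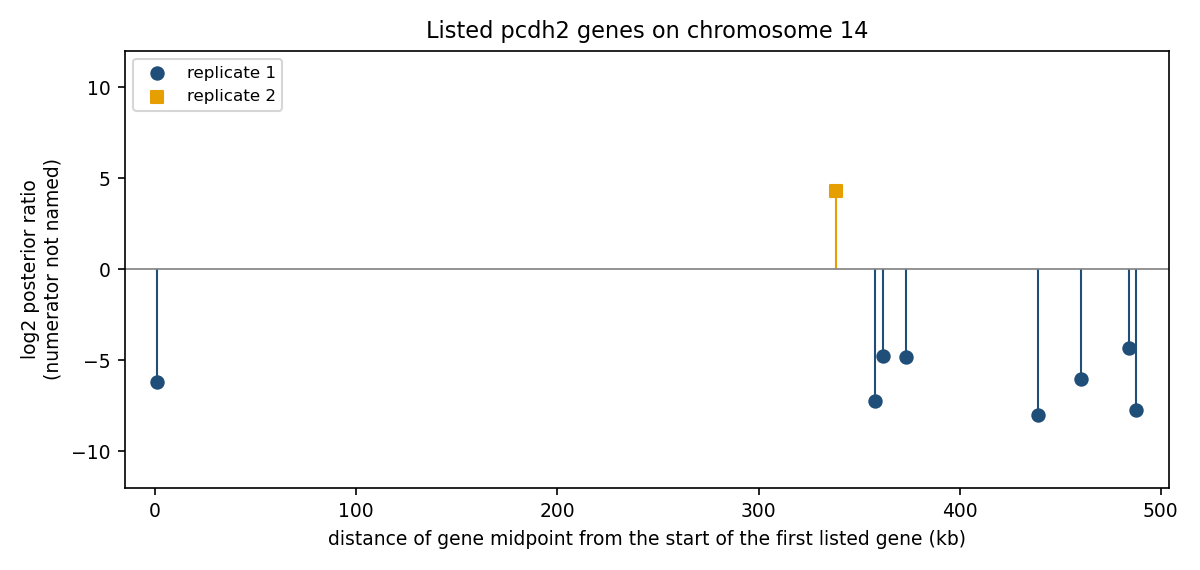
Log2 posterior ratio of the listed pcdh2 genes on chromosome 14 against the distance, in kb, of the gene's midpoint from the start of the first one, with circles for replicate 1 and squares for replicate 2. The 8 genes of replicate 1 lie below 1 and the 1 gene of replicate 2, pcdh2g3 (ENSDARG00000074959), above 1.

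On chromosome 10, pcdh1a3 was at -4.91 and pcdh1g2 at -6.29 by the authors' deposited table for replicate 1. Each shares its start and end with a second identifier in the file, zgc:123181 at -5.27 for pcdh1a3 and BX119910.17 at -4.85 for pcdh1g2, so the same reads may stand behind both rows. All 3 neural and glial markers listed in replicate 1, elavl3 (5.91), foxd3 (6.08) and plp1b (6.98), and both listed in replicate 2 were above 1 by the authors' deposited tables. Of all listed genes, 66.6% lay above 1 in replicate 1 and 42.9% in replicate 2. Fold columns were over 10 times apart for foxd3 in both replicates and for plp1b. The clustered protocadherins had 19 of 20 below 1 in replicate 1, where 33.4% of all listed genes were. PCDHAC2 lay above 1 there, and 1 lay on each side in replicate 2. The part of neural and glial cells in the protocadherin values was not tested.

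Genes with a wide gap between the fold columns were spread unevenly over the members. In replicate 1, 8 of the 23 members below 1 had fold columns over 10 times apart (34.8%), where 8.58% of all genes below 1 did, and all 8 were clustered protocadherins. Above 1, 12 of 18 members did (66.7%), where 63.6% of all genes above 1 did. In replicate 2, 2 of 11 members below 1 and 1 of 5 above 1 had such a gap, where 11% of all genes below 1 and 9.7% of those above 1 did. No gene of replicate 1 had a gap between 9.48 and 138.4 times, so the limit of 10 does not divide a continuous range.

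Loci also differed between the groups of members. The clustered protocadherins of replicate 1 with coordinates had a median locus of 2.42 kb, with a range from 1.47 kb to 89.2 kb. The other members of replicate 1 had a median of 54.8 kb, up to 340.7 kb for cdh13, and all listed genes with coordinates a median of 13.0 kb.

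Other adhesion and matrix genes were counted in 6 symbol lists, with 33.4% of all listed genes below 1 in replicate 1 and 57.1% in replicate 2. The median log2 ratio over all listed genes was 6.02 in replicate 1 and -1.90 in replicate 2. As no listed gene of replicate 1 lay between -4.13 and 5.14, medians there tell mainly which side holds more genes. Of 105 symbols of matrix glycoproteins and proteoglycans, 12 genes were listed in replicate 1, 8 below and 4 above 1, and 8 in replicate 2, 6 below and 2 above. The elastic fibre gene emilin1b was the only one in both, at -4.28 and -1.88 by the authors' deposited tables. In replicate 1, SMOC1 (ENSDARG00000088255), of a calcium-binding basement membrane protein, was lowest at -5.08 by the authors' deposited table. Another SMOC1 identifier, ENSDARG00000089188, was at -4.33 there. The brain proteoglycan gene ncanb was highest at 7.75 in that replicate, with fold columns over 10 times apart. In replicate 2, vtnb, for vitronectin, was lowest at -3.10 and emilin2a highest at 3.67. The list's median was -4.36 in replicate 1 and -2.04 in replicate 2.

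Genes of collagen processing fell 4 below and 3 above 1 in replicate 1 and 2 below and 1 above in replicate 2, with median log2 ratios of -4.24 and -1.72. The collagen lysyl hydroxylase gene plod2 lay below 1 in both, at -5.35 and -1.72 by the authors' deposited tables, and the crosslinking enzyme gene lox was at -2.90 in replicate 2 alone. On the other side in replicate 1 lay LOXL4 (ENSDARG00000086609) at 6.53, bmp1b at 6.32 and loxl4 (ENSDARG00000025089) at 5.68. Of these, LOXL4 and bmp1b had fold columns over 10 times apart. In replicate 2 the gene now named pcolcea was above 1, at 1.88. Of the list of ADAM proteases, inhibitors and plasminogen activators, 2 of 2 genes lay below 1 in replicate 1 and 3 of 4 in replicate 2, with medians of -4.86 and -2.74. The tissue plasminogen activator gene PLAT was in both deposited tables, at -5.36 and -3.79, while PLAU, the urokinase gene, lay above 1 at 2.52 in replicate 2. ADAM12 was at -5.99 by the authors' deposited table for replicate 2, with fold columns over 10 times apart. Basement membrane genes beyond laminins and collagens were few, with ntn2 and hmcn2 above 1 in replicate 1, dag1 below 1 and sgca above 1 in replicate 2, and medians of 6.34 and 0.026.

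Of the list of catenins, desmosomes and other adhesion genes, 3 of 7 genes lay below 1 in replicate 1 and 4 of 5 in replicate 2, with medians of 5.19 and -2.04. The epithelial adhesion gene EPCAM was at -6.00 and -2.89, and the nectin gene pvrl1b at -5.75 and -2.51, by the authors' deposited tables. In replicate 2 the desmosomal cadherin gene dsc2l, at -2.04 by the authors' deposited table, lay on the side of cdh1. The only gene of that list above 1 in replicate 2 was CELSR2, at 2.35. The alpha catenin gene of neurons, ctnna2, was highest at 9.24 by the authors' deposited table for replicate 1. Of the integrin-linked list, 2 of 3 genes lay below 1 in replicate 1 and 3 of 5 in replicate 2, with medians of -6.74 and -1.77. The tetraspanin gene cd9b was in both, at -7.00 and -3.80 by the authors' deposited tables. Above 1 lay gpc3 at 5.89 in replicate 1, and TNS3 (ENSDARG00000095654) at 4.51 and parvab at 1.88 in replicate 2. Fold columns were over 10 times apart for gpc3 and that TNS3 identifier. Another TNS3 identifier, ENSDARG00000087773, was at -6.74 in replicate 1. Over these 6 lists, the 6 genes in both tables (emilin1b, plod2, PLAT, cd9b, EPCAM and pvrl1b) all lay below 1 in both, where 61.4% of all genes in both tables did.

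Of the remaining marker lists, that of oocytes did not keep to a side. Oocyte markers lay above 1 in replicate 1, 3 of 3, and below 1 in replicate 2, 11 of 11. The 3 genes of replicate 1 were among those 11 and so changed side. In replicates 1 and 2, zp2.5 was at 7.99 and -10.14, zp3a.2 at 6.85 and -5.57, and zp2.2 at 6.57 and -5.24. Of all listed genes, 66.6% lay above 1 in replicate 1 and 57.1% below 1 in replicate 2. Fold columns were over 10 times apart for all 3 oocyte markers of replicate 1 and for 1 of the 11 of replicate 2. Of the erythrocyte and thrombocyte list, itga2b (ENSDARG00000018687) lay above 1 in replicate 1. The globin gene hbaa1, at 3.12 by the authors' deposited table, lay above 1 in replicate 2. The identifier now named itga2.1, matched to this list by its older name, lay below 1 in replicate 2. The part of these cell types in the members' values was not tested.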

How the data were processed

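The members and lists were chosen with earlier results of these data known. The authors deposited 2 tables, 1 per replicate. Per the file headers, each row has an Ensembl identifier, a name, a locus, posterior probabilities of equal and of different expression, and a fold in 2 forms, posterior and uncorrected, which the authors give as linear ratios comparing a replicate's 2 libraries. The submitters' processing notes name RSEM, Zv9 and danRer7, without version or role. How the probabilities were modelled is not stated in those notes.

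Every listed gene had a deposited probability of difference of at least 0.99. Counts of sides were used as planned. A count test was foreseen only for counts per library, which were not given, so it was not run. Members were matched on the file's name, with case ignored. List genes were matched on that name or on the current symbol of the identifier, known for 2048 of 3020 genes and 27 of 52 members. Named genes are all members in both tables, up to 3 per family, side and table, others that complete a family, and list genes in both tables or farthest from 1; other list genes and the markers named were chosen after their values were seen.

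Both libraries of a replicate share a table per the labels, so the ratio is within a pair. No value per library allowed a check of the pairing. Limma 3.58.1 (R 4.3.3) tested the mean log2 ratio of the 352 shared genes against 0. The code was also run on simulated ratios with known shifts. Their spread was not taken from these data, so that run does not show how the fit behaves here. Python 3.11.15 with pandas 2.3.3 made the counts. Sequences were not used here.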

Additional observations from a re-analysis of the deposited data

How the results depend on the processing

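Sides and counts of members did not change with the uncorrected fold, and changed by at most 1 gene at a 4-fold limit or with current symbols. With a probability of equal expression under 0.001, 1 member lay above 1 in both replicates (2 in the report), 9 above 1 in replicate 1 (18) and 2 above 1 in replicate 2 (5). At that limit 16 members lay below 1 in replicate 1 (23), 10 in replicate 2 (11) and 3 in both (3). Without genes whose fold columns were over 10 times apart, 0 members lay above 1 in both, 1 below 1 in both (3 in the report), 6 above and 15 below 1 in replicate 1 (18 and 23). With each table centred on its median log2 ratio (6.02 and -1.90), 5 members of replicate 1 changed sign, CDH23 (ENSDARG00000007561) to -0.55, itga2b to -0.46, PCDHAC2 to -0.42, pcdh10a to -0.16 and MMP21 to -0.095. Their deposited ratios ran from 44.4 to 60.8, so they changed side against the median of the listed genes and not against 1.

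Under the replicate block, limma called 0 members on either side, and the 4 of the 352 shared genes it called fell to 0 with the uncorrected fold and to 0 after centring. In the side of 1 replicate alone, without the other, 11 to 23 members lay below 1 and 5 to 18 above 1.

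After the data were seen, members were also counted without the clustered protocadherins, which left 4 below 1 in replicate 1, and without the 5 symbols that stand on several identifiers, which left 13 below 1 in replicate 1, 7 below and 3 above 1 in replicate 2 and 1 above 1 in both. Depth per library is unknown and limits every ratio.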

Other observations

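A few listed genes carry collagen names only in current annotation. The identifier named si:dkey-117n7.2 (chromosome 4, 15007466 to 15009239) is now called col7a1l, lies beside the col7a1l locus of the file, and had a log2 ratio of 6.56 by the authors' deposited table for replicate 1, with fold columns over 10 times apart. CH1073-95O12.1 (chromosome 23, 45870808 to 45877297), now called col24a1, a fibrillar collagen gene, was at 3.93 by the authors' deposited table for replicate 2. RefSeq's table for the GRCz12tu assembly lists si:ch211-174d12.4, which shares the coordinates of col28a1, as a synonym of col28a1a, and it lay below 1 like col28a1. None of these 3 was counted among the 52 members.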
